A study of Mus musculus with 6 samples.

Results

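The genes described here carry out antigen presentation, the display of peptides and other ligands to T cells on molecules of the major histocompatibility complex (MHC). They were chosen by name as 34 genes, all 34 of which were found in the authors' deposited comparison table and in the count table, out of 46078 genes counted and 16856 tested. They comprise 3 chains of class II molecules, 4 genes of class II peptide loading, 2 classical class I heavy chains, 14 nonclassical class I genes, 6 genes of the class I light chain and peptide supply, and 5 transcriptional regulators. The libraries came from the colon epithelial fraction of mice aged 2 months, either wild type (3 libraries) or Lingo3-/-, homozygous for a knockout of Lingo3 (3 libraries), kept without treatment. The protocol given for all 6 libraries has the cells washed off with EDTA and DTT, whereas at the level of the single libraries wild type replicate 1 is labelled with EDTA and DTT and the other 5 with EDTA alone. Neither the strain of the mice, nor how the allele was made, nor whether each library is a separate animal is given in the labels, so the p-values refer to the spread among these libraries, and that spread may be technical.

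Class I molecules are found on nearly all nucleated cells and pair a polymorphic heavy chain with beta 2 microglobulin. Their peptides come from the cytosol, are moved into the endoplasmic reticulum by the TAP transporter, trimmed by aminopeptidases and loaded with the help of tapasin. Class II molecules are alpha and beta pairs that reach endosomes with the invariant chain, which is exchanged there for peptides from engulfed proteins under the control of H2-DM. B cells, dendritic cells and macrophages can carry class II, and intestinal epithelial cells can carry it after exposure to interferon gamma. Nonclassical class I molecules have a narrower tissue range and present unusual ligands or bind receptors of intraepithelial lymphocytes. NLRC5 is the main transcriptional activator of class I genes and CIITA that of class II genes. Neither binds DNA itself, and both act through the RFX, CREB and NF-Y factors bound to a conserved promoter module.

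The module is printed first because it is the promoter element known from both class I and class II genes. RefSeq promoter windows of GRCm38.p6 were found for 23 of the 34 genes. Those of Cd1d1, Cd74, Ciita, H2-Ab1, H2-Q1, H2-T10, H2-T24, Nlrc5, Rfxap, Tap2 and Tapbpl were not used here. The module was searched for as TGACG or TGATG (the core of the X2 box, bound by CREB) followed after 18 to 25 bases by ATTGG (the Y box, bound by NF-Y), on both strands of the 250 bases before each gene start. These spacings were set after the sequences had been seen. The module was found for 11 of the 23 genes (47.8%), against 234 of all 27025 genes in the promoter table (0.866%), and ATTGG alone for 19 of 23 (82.6%) against 37.5% of all genes. The 11 were H2-Aa, H2-Eb1, H2-DMb1 and H2-DMb2 of class II and H2-K1, H2-D1, H2-Q4, H2-Q6, H2-Q7, H2-M3 and B2m of class I. In the stretches below, written 5′ to 3′ on the strand of the gene and ending at the last base before its start, the capitals mark the X2 core and the Y box. The class II examples are H2-Aa at chr17:34287824-34287973 (minus strand) and H2-Eb1 at chr17:34305717-34305866 (plus strand):
H2-Aa: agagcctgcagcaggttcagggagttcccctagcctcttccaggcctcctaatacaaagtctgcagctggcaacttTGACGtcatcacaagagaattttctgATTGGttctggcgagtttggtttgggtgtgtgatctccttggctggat
H2-Eb1: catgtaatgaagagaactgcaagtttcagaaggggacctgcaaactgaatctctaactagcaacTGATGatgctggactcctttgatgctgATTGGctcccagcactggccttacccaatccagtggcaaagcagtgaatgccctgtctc
The class I examples are H2-K1 at chr17:34000348-34000497 (minus strand), H2-Q4 at chr17:35379467-35379616 (plus strand), H2-Q7 at chr17:35439005-35439154 (plus strand) and B2m at chr2:122147537-122147685 (plus strand):
H2-K1: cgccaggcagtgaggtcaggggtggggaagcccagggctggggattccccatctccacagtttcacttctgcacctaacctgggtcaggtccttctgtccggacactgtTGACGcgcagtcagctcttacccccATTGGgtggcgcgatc
H2-Q4: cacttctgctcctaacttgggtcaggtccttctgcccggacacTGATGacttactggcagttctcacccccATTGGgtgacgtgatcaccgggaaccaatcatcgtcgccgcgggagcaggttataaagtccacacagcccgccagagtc
H2-Q7: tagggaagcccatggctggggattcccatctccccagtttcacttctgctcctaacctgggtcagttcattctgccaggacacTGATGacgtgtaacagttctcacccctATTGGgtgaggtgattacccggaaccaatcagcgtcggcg
B2m: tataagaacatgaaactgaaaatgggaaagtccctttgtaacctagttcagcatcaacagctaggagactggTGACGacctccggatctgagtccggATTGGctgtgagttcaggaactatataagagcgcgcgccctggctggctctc
H2-Q10 at chr17:35469939-35470088 (plus strand), a neighbour of H2-Q7, is shown as a related gene in whose window neither the module nor ATTGG was found:
H2-Q10: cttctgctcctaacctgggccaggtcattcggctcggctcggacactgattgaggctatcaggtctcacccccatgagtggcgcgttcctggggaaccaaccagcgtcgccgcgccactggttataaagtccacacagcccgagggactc
The gap between the capitals was 20 bases in H2-K1 and B2m, 21 in H2-Aa, 22 in H2-Eb1 and H2-Q7 and 23 in H2-Q4. A match in sequence does not show that a factor was bound in these cells.

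Counts over genes ran from 11868000 to 28029583 per library, with the 3 wild type libraries the deeper ones, and transcripts of the mitochondrial genome took 45.3 to 48.4% of them in wild type and 34.7 to 36.3% in knockout. Lingo3 itself had 3, 3 and 1 counts in wild type and 2, 0 and 1 in knockout, so it does not check the genotype labels. Levels are given as CPM, counts scaled to the TMM-adjusted library size, on which scale 3 counts were worth 0.113 to 0.240. Each of the 34 genes passed the filter on low counts, with 9 to 18245 counts per library. Markers of the epithelium were abundant, the galectin gene Lgals4 at 1409 ± 135 and 1626 ± 185 CPM (SD, n = 3) and the keratin gene Krt8 at 1277 ± 111 and 1511 ± 252 CPM (SD, n = 3) in wild type and knockout.

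Of the 34 genes, 1 rose and 1 fell in knockout and 32 did not pass. The threshold was 0.05 on the Benjamini-Hochberg adjusted p of edgeR (quasi-likelihood), taken over all genes tested. The share called among all genes tested was 15.4%, with 9.43% higher and 5.97% lower, and among the 34 it was 5.88%. The gene that fell was H2-Q1, a nonclassical class I gene, and the gene that rose was Erap1, the aminopeptidase that trims class I peptides in the endoplasmic reticulum. At an unadjusted p under 0.05 the number was 8 of 34, against 31.2% of all genes tested. For 5 of the 34 genes every knockout library lay above every wild type library, and for 6 every knockout library lay below, where the shares among all genes tested were 19.6% and 16.0%. The median log2 fold change (knockout minus wild type) was -0.17 over the 34 genes and -0.025 over all genes tested. Without wild type replicate 2 the median of the 34 genes was 0.0036 and 16 rather than 22 of them lay below 0. Without any other 1 library that median was -0.20 to -0.090.

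**Figure D1:**
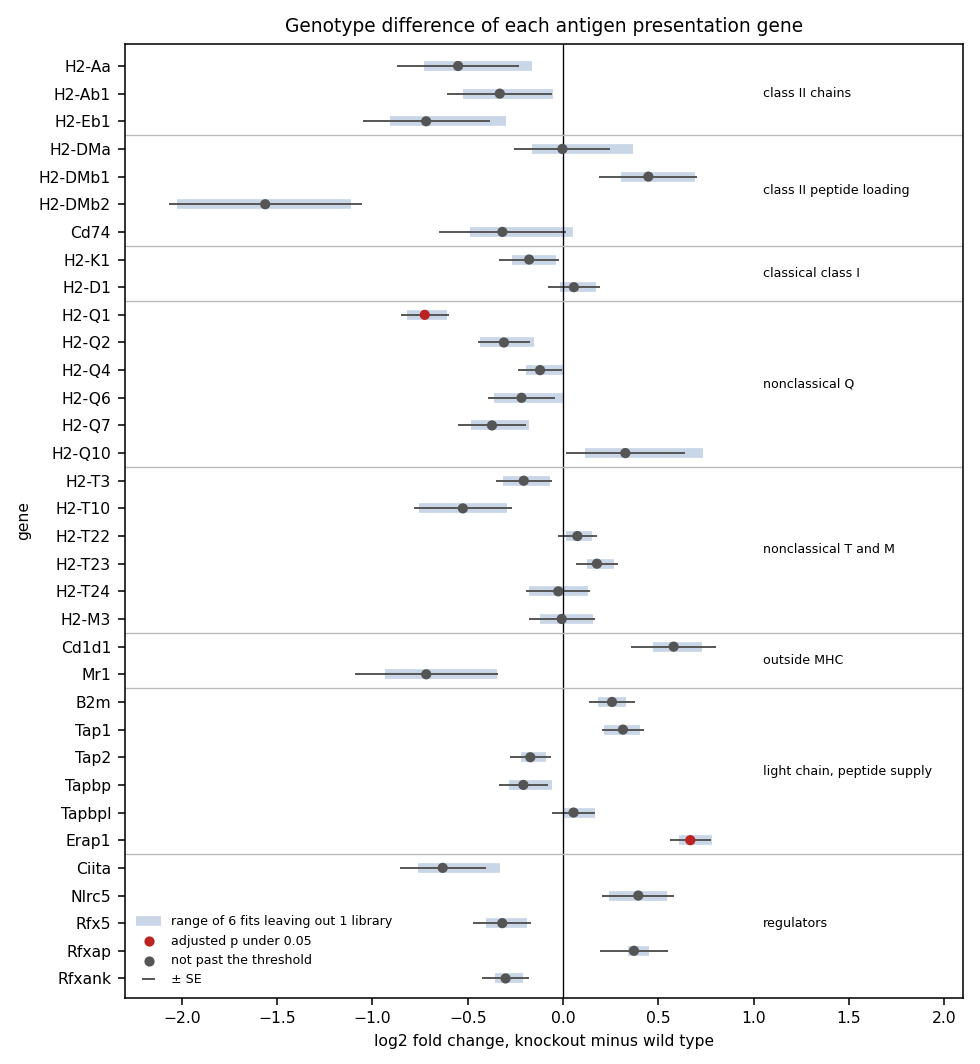
Log2 fold change of each of the 34 genes (points, knockout minus wild type, with SE as thin bars) and the range of the 6 fits that each leave out 1 library (pale bars); red marks an adjusted p under 0.05 by edgeR. H2-Q1 at -0.73 and Erap1 at 0.67 are the red points, and the pale bars of the class II genes are among the widest.

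Measured per kilobase of exon, for a rough comparison of genes, B2m, H2-K1 and H2-D1 stood far above the class II genes in both genotypes. The order below depends on the annotated length, with exons of all transcripts merged (3798 bases for H2-Aa, 1679 for Cd74). It also depends on how many reads could be assigned to 1 gene. In CPM alone H2-K1 (738) and H2-D1 (539) lay above B2m (385) in wild type. The wild type means of Tapbpl, Erap1, Tap1 and Tap2 (9.19, 7.27, 6.92 and 5.14 CPM per kilobase) lay below those of the class II chains. Those of Tapbpl, Erap1 and Tap1 were within the SD of H2-Aa (4.41). This order did not hold in knockout. There the means of Erap1 (11.6), Tapbpl (9.56) and Tap1 (8.60) lay above H2-Aa (7.73) and H2-Eb1 (8.45) and below H2-Ab1 (12.0). Tap2 (4.57) lay below all of these. In wild type B2m, the light chain of every class I molecule, was the highest at 447 CPM per kilobase, followed by H2-K1 at 251 and H2-D1 at 209. Next came H2-Q2 (60.6), the invariant chain gene Cd74 (53.0), H2-T23 (52.9) and Tapbp (46.2). The SD of Cd74 over the libraries covered both of its neighbours in this order. The class II chains H2-Ab1, H2-Eb1 and H2-Aa stood at 15.1, 13.9 and 11.3 CPM per kilobase, which did not differ beyond their spread. The lowest levels were those of Mr1 (0.340), H2-Q10 (0.766), Ciita (0.896) and H2-T10 (0.931). In knockout B2m was again the highest at 535 CPM per kilobase. H2-K1 at 222 ± 37.9 and H2-D1 at 217 ± 30.4 CPM per kilobase (SD, n = 3) did not differ beyond their spread there, and Mr1 was again the lowest at 0.212.

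**Figure D2:**
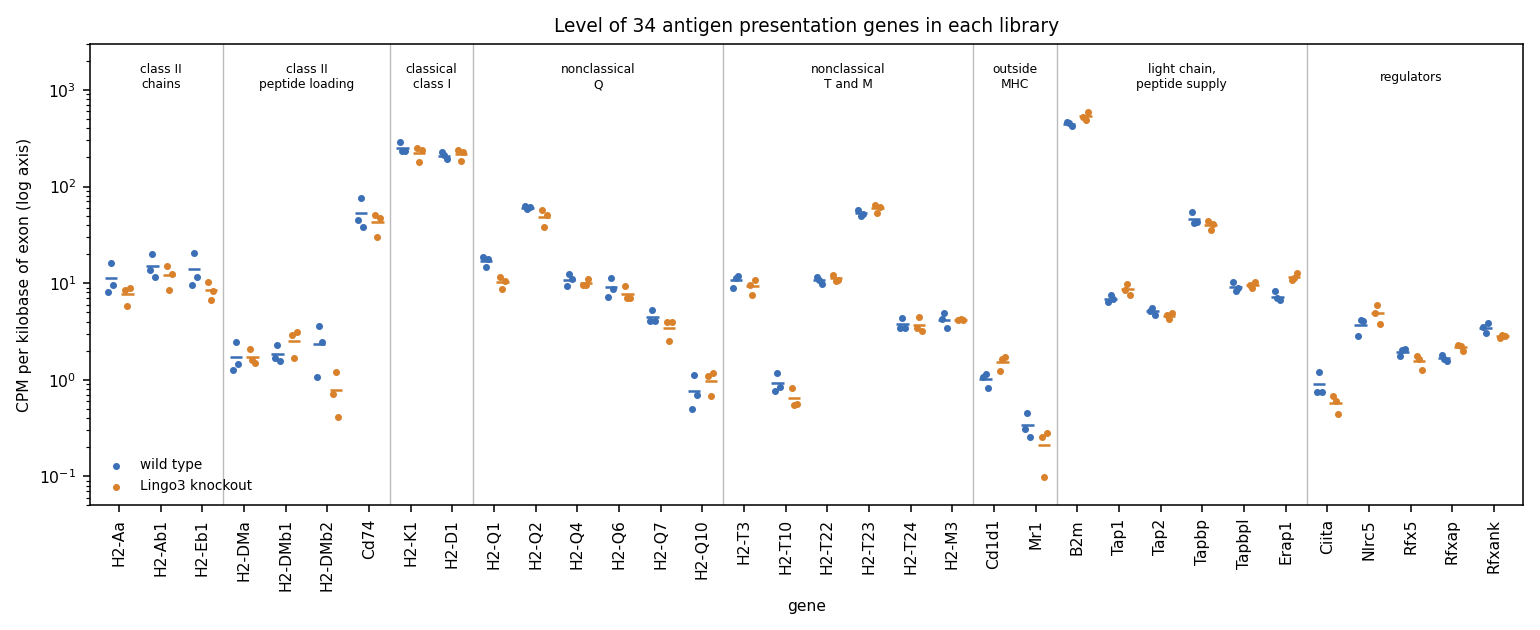
Level of each gene in each library, as CPM per kilobase of annotated exon on a log axis (blue, wild type; orange, Lingo3 knockout; dashes, mean of 3 libraries). B2m, H2-K1 and H2-D1 stand above the other genes in both genotypes, and the points of the genotypes overlap for 23 of the 34 genes.

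The 3 class II chains and the 4 peptide loading genes showed 0 calls by edgeR in either direction, 1 gene at an unadjusted p under 0.05 and 2 lower by DESeq2, and their libraries overlapped between genotypes in each of the 7 genes. H2-Aa (ENSMUSG00000036594), the alpha chain of the A molecule on chromosome 17 from 34282744 to 34287823, had 30.5, 61.9 and 36.1 CPM in wild type replicates 1, 2 and 3 and 32.3, 22.1 and 33.6 CPM in knockout replicates 1, 2 and 3. Its log2 fold change was -0.55 ± 0.32 (SE, edgeR adjusted p = 0.306). Only wild type replicate 2 lay clearly above the rest. H2-Ab1 (ENSMUSG00000073421), the matching beta chain from 34257689 to 34269419, had 34.9, 51.4 and 30.0 CPM in wild type and 38.5, 22 and 32.0 CPM in knockout. Its log2 fold change was -0.33 ± 0.28 (SE, edgeR adjusted p = 0.463), and again wild type replicate 2 was the highest library and knockout replicate 2 the lowest. H2-Eb1, the beta chain of the E molecule, had 18.5, 39.7 and 22.6 CPM in wild type and 19.8, 13.1 and 16.3 CPM in knockout (log2 fold change -0.72 ± 0.33 SE, edgeR adjusted p = 0.209). It passed under DESeq2 (adjusted p = 0.0222) and in the authors' deposited table (adjusted p = 0.0224). In bulk libraries fewer cells of a type and less RNA per cell cannot be told apart.

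Cd74 (ENSMUSG00000024610), the invariant chain that escorts class II molecules, had 75.4, 127.0 and 64.6 CPM in wild type and 85.5, 49.8 and 79.3 CPM in knockout (log2 fold change -0.32 ± 0.34 SE, edgeR adjusted p = 0.570). As for the class II chains, wild type replicate 2 was the highest library and knockout replicate 2 the lowest. H2-DMa, the alpha chain of the peptide exchange factor H2-DM, stood at 5.96 ± 2.20 and 5.95 ± 1.09 CPM (SD, n = 3) in wild type and knockout. The paired genes of its beta chain lay on opposite sides of 0. H2-DMb1 had 2.80, 3.84 and 2.64 CPM in wild type and 4.83, 2.81 and 5.19 CPM in knockout (log2 fold change 0.45 ± 0.26 SE, edgeR adjusted p = 0.256). H2-DMb2 had 1.87, 6.21 and 4.29 CPM in wild type and 1.23, 2.12 and 0.719 CPM in knockout (log2 fold change -1.56 ± 0.51 SE, edgeR adjusted p = 0.0794). The ratio of H2-DMb2 to H2-DMb1 was 0.667, 1.62 and 1.62 in wild type and 0.255, 0.755 and 0.138 in knockout, so the groups overlapped through wild type replicate 1. H2-DMb2 passed under DESeq2 (adjusted p = 0.00301), in the authors' deposited table (adjusted p = 0.00231) and in the edgeR fit without wild type replicate 1 (adjusted p = 0.00814). Of the 50-base words in the longest H2-DMb1 transcript 27.2% also occurred in H2-DMb2, so reads from these stretches may not have been assignable to 1 gene.

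Summed over the 7 class II genes, the level was 168, 298 and 165 CPM in wild type replicates 1, 2 and 3 and 189, 118 and 172 CPM in knockout replicates 1, 2 and 3. The median log2 fold change of the 7 was -0.33. It was -0.051 without wild type replicate 2, and -0.52 to -0.13 without any other 1 library. In the fit without wild type replicate 2 H2-Aa stood at -0.16, H2-Ab1 at -0.051, H2-Eb1 at -0.30, H2-DMa at 0.37 and Cd74 at 0.051. H2-DMb1 stood at 0.66 and H2-DMb2 at -1.11. Summed markers of cells that carry class II are given here library by library. The summed 8 B cell markers were at 22.3, 65.7 and 34.3 CPM in wild type and 14.8, 16.3 and 9.35 CPM in knockout, so that wild type replicate 2 was the highest there too. The summed 10 macrophage and monocyte markers were at 87.5, 78.9 and 68.8 CPM in wild type and 208, 41.8 and 110.0 CPM in knockout, with knockout replicate 1 highest and knockout replicate 2 lowest. The summed 9 dendritic cell markers were at 12.5, 16.2 and 14.6 CPM in wild type and 8.90, 6.25 and 9.51 CPM in knockout. Here wild type replicate 2 was highest and knockout replicate 2 lowest, as in the class II sum. Most of this dendritic cell sum came from Itgax, Zbtb46 and Ccr7, and of these only Ccr7 had that order. Itgax was lowest in knockout replicate 1 (3.60 CPM), and Zbtb46 was highest in wild type replicate 1 (3.41 CPM). The part of these cells in the class II levels was not tested.

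**Figure D3:**
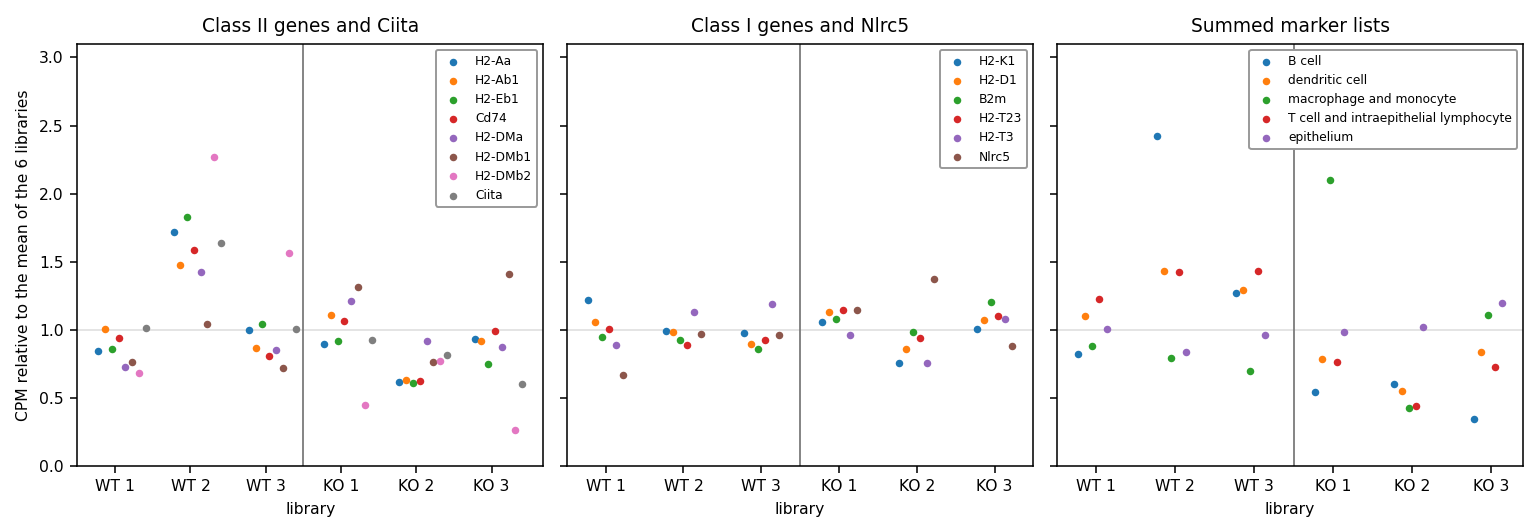
CPM of each gene, or summed CPM of each marker list, divided by its mean over the 6 libraries (WT 1 to 3, wild type replicates; KO 1 to 3, knockout replicates). The class II chains, Cd74 and Ciita are highest in WT 2, where the B cell markers summed to 65.7 CPM, and the chains and Cd74 are lowest in KO 2.

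Over all marker lists 17 of 51 genes tested fell and 3 rose by edgeR, where 5.97% of all genes tested fell and 9.43% rose. Of the 8 B cell markers 3 fell (Cd79b, Pax5 and Fcer2a) and 0 rose by edgeR. The number that fell was 7 with DESeq2 or no filter, 7 without wild type replicate 1 and 1 without knockout replicate 3. The 2 most abundant were Ms4a1, which encodes CD20, at 8.54 ± 4.90 and 3.29 ± 1.88 CPM and the antigen receptor component Cd79b at 8.67 ± 3.64 and 2.70 ± 0.707 CPM (SD, n = 3) in wild type and knockout. Of 9 dendritic cell markers 3 could be tested and 2 fell, the integrin gene Itgax at 7.29 ± 1.22 and 4.51 ± 1.23 CPM and the chemokine receptor gene Ccr7 at 3.12 ± 1.17 and 0.963 ± 0.510 CPM (SD, n = 3). By edgeR 0 of these fell without wild type replicate 2 or 3, and 1 without knockout replicate 2. Zbtb46, a transcription factor gene of conventional dendritic cells, stood at 2.99 ± 0.406 and 1.97 ± 0.923 CPM (SD, n = 3) and did not pass (edgeR adjusted p = 0.208). Markers of the cross-presenting subset of dendritic cells were near or under the floor, with Clec9a at 0.074 and 0.017 CPM and Xcr1 at 0.168 and 0.113 CPM on average. Of the 9 macrophage and monocyte markers tested 0 passed by edgeR, 2 had an unadjusted p under 0.05 and 1 rose by DESeq2. The most abundant, Lyz2 and Csf1r, stood at 56.0 ± 5.88 and 91.1 ± 66.6 CPM and at 7.45 ± 2.23 and 5.96 ± 3.81 CPM (SD, n = 3). Of 12 T cell and intraepithelial lymphocyte markers 10 fell and 0 rose, with summed levels of 315 to 367 CPM in wild type and 113 to 196 CPM in knockout. The most abundant were the granzyme genes Gzma and Gzmb, at 103 ± 17.6 and 49.2 ± 13.4 CPM and at 58.1 ± 5.67 and 22.4 ± 7.03 CPM (SD, n = 3). Of 4 innate lymphoid markers tested 2 rose, Kit and Il1r1, while Il22 had at most 1 count in any library. Of 6 endothelial and fibroblast markers 2 fell, Pecam1 and Kdr (4 with DESeq2 or limma-voom and 4 without wild type replicate 3), and of 9 epithelial markers 1 rose, Krt18. Abundant genes of these lists were Kit (52.2 ± 4.51 and 75.3 ± 1.03 CPM), Col3a1 (330.2 ± 159 and 108 ± 37.1 CPM) and Dcn (272 ± 127 and 199 ± 64.2 CPM; SD, n = 3).

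The classical class I heavy chains, which present peptides to CD8 T cells, did not pass, with 0 of 2 called by edgeR or DESeq2 and 0 at an unadjusted p under 0.05. H2-K1 (ENSMUSG00000061232), on chromosome 17 from 33996017 to 34000347, had 848, 687 and 679 CPM in wild type and 735, 526 and 697 CPM in knockout. Its log2 fold change was -0.18 ± 0.16 (SE, edgeR adjusted p = 0.465). H2-D1 (ENSMUSG00000073411), from 35262730 to 35267499, had 582, 542 and 493 CPM in wild type and 621, 472 and 590 CPM in knockout (log2 fold change 0.057 ± 0.14 SE, edgeR adjusted p = 0.808). In both genes knockout replicate 2 was the lowest library and the groups overlapped. The summed class II genes made 11.8, 24.3 and 14.1% of the summed classical class I CPM in wild type and 14.0, 11.8 and 13.4% in knockout. Wild type replicate 2 alone stood apart in this ratio, since its class I sum of 1229 CPM lay between those of the other wild type libraries.

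Among the 6 nonclassical genes of the Q region 1 fell, H2-Q1, and 5 did not pass, with a median log2 fold change of -0.26. H2-Q1 (ENSMUSG00000079507), on chromosome 17 from 35320405 to 35325099 on the plus strand, had 53.1, 42.2 and 51.2 CPM in wild type replicates 1, 2 and 3 and 33.3, 25 and 30.4 CPM in knockout replicates 1, 2 and 3. Each knockout library lay below each wild type library. The log2 fold change was -0.73 ± 0.13 (SE, edgeR adjusted p = 0.00427), a knockout level of 0.605 times that of wild type, and the call was kept without any 1 library (highest edgeR adjusted p = 0.0290). In the longest H2-Q1 transcript 16.1% of the 50-base words also occurred in other genes, most often in H2-Q2 (9.7%). H2-Q2, its neighbour from 35342242 to 35346762, had 136, 127 and 134 CPM in wild type and 125, 83.0 and 112 CPM in knockout (log2 fold change -0.31 ± 0.14 SE, edgeR adjusted p = 0.145), also without overlap. The ratio of H2-Q1 to H2-Q2 was 0.389, 0.334 and 0.383 in wild type and 0.266, 0.301 and 0.271 in knockout, so the genes did not keep a fixed proportion. The strain of the mice is not given, and whether both genotypes carried the same MHC alleles was not tested. Counts of MHC genes and pseudogenes, here and elsewhere in this text, may depend on those alleles.

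The remaining Q genes were lower in level. H2-Q4 stood at 28.3 ± 3.86 and 26.1 ± 2.32 CPM (SD, n = 3), H2-Q6 at 18.8 ± 4.38 and 16.1 ± 2.72 CPM, and H2-Q7 at 18.9 ± 2.90 and 14.7 ± 3.50 CPM in wild type and knockout. H2-Q6 and H2-Q7 encode forms of the Qa-2 antigen. The groups overlapped for H2-Q4 and H2-Q6, while each knockout library of H2-Q7 lay below each wild type library (log2 fold change -0.37 ± 0.18 SE, edgeR adjusted p = 0.189). H2-Q10 stood at 3.33 ± 1.39 and 4.25 ± 1.18 CPM (SD, n = 3) (log2 fold change 0.33 ± 0.31 SE, edgeR adjusted p = 0.509). From 28.5 to 36.9% of the 50-base words of H2-Q4, H2-Q6 and H2-Q7 were shared with other genes, so reads could be split between these copies and their levels are uncertain.

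Of the 6 genes of the T and M regions 0 passed by edgeR, 0 had an unadjusted p under 0.05 and 0 passed by DESeq2. H2-T23, which encodes Qa-1, a ligand of the CD94 and NKG2 receptors, was the most abundant at 164, 145 and 150.1 CPM in wild type and 187, 153 and 179 CPM in knockout (log2 fold change 0.18 ± 0.11 SE, edgeR adjusted p = 0.293). Its libraries overlapped between genotypes through wild type replicate 1. H2-T3, the thymus leukaemia antigen that intestinal epithelium displays and that binds CD8 alpha homodimers, had 24.4, 31.0 and 32.6 CPM in wild type and 26.4, 20.7 and 29.5 CPM in knockout (log2 fold change -0.21 ± 0.15 SE, edgeR adjusted p = 0.364). H2-T22 and H2-T10 are related genes for ligands of some gamma delta T cells, though H2-T10 is annotated as a polymorphic pseudogene. They stood at 36.3 ± 3.09 and 38.3 ± 2.92 CPM and at 3.18 ± 0.747 and 2.20 ± 0.545 CPM (SD, n = 3). More of their sequence was shared than for any other of the 34 genes, 58.5% of the 50-base words of H2-T22 and 50.1% of those of H2-T10. H2-T24 stood at 8.18 ± 1.20 and 8.02 ± 1.43 CPM, and H2-M3, which presents formylated peptides, at 6.03 ± 1.11 and 6.01 ± 0.0903 CPM (SD, n = 3).

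Both nonclassical genes outside the MHC did not pass. Cd1d1, which presents lipids to natural killer T cells, had 2.71, 2.94 and 2.12 CPM in wild type and 3.14, 4.18 and 4.39 CPM in knockout. Each knockout library lay above each wild type library (log2 fold change 0.58 ± 0.22 SE, edgeR adjusted p = 0.0986), and 25.8% of its 50-base words were shared with Cd1d2. Mr1, which presents vitamin B metabolites to mucosal associated invariant T cells, had 35 to 72 counts in wild type and 11 to 30 in knockout (log2 fold change -0.72 ± 0.38 SE, edgeR adjusted p = 0.215). Over the 14 nonclassical genes the median log2 fold change was -0.16 (0.0036 without wild type replicate 2, -0.23 to -0.10 without any other library). It was -0.060 over the 2 classical genes, as against -0.33 over the 7 class II genes and -0.025 over all genes tested. Without wild type replicate 2 these 3 medians were -0.061, -0.051 and -0.00033. That library was the highest wild type library for each of the 7 class II genes. Leaving it out therefore had to raise their log2 fold changes, and no conclusion is drawn from that fit. Without any other 1 library the class II median was -0.52 to -0.13.

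Erap1 (ENSMUSG00000021583), on chromosome 13 from 74639568 to 74693201 on the plus strand, had 59.7, 50.6 and 48.4 CPM in wild type replicates 1, 2 and 3 and 78.6, 82.0 and 91.7 CPM in knockout replicates 1, 2 and 3. Every knockout library was above every wild type library. The log2 fold change was 0.67 ± 0.11 (SE, edgeR adjusted p = 0.00299), a knockout level 1.59 times that of wild type, and the call was kept without any 1 library (highest edgeR adjusted p = 0.0222). Part of its exons lies opposite Cast on the other strand (14.0% of the 50-base words), and whether the counting used strand is not given in the sources used here. Cast itself did not pass (log2 fold change -0.032 ± 0.095 SE, edgeR adjusted p = 0.848).

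The other 5 genes of class I assembly did not pass, and for 2 of them, B2m and Tap1, each knockout library lay above each wild type library. B2m (ENSMUSG00000060802), on chromosome 2 from 122147686 to 122153083, had 400, 391 and 363 CPM in wild type and 456, 416 and 508 CPM in knockout. The groups did not overlap (log2 fold change 0.26 ± 0.12 SE, edgeR adjusted p = 0.169). The ratio of H2-K1 to B2m was 2.12, 1.76 and 1.87 in wild type and 1.61, 1.26 and 1.37 in knockout. Tap1, a subunit of the peptide transporter, had 34.9, 41.2 and 37.6 CPM in wild type and 46.2, 53.6 and 41.5 CPM in knockout (log2 fold change 0.31 ± 0.11 SE, edgeR adjusted p = 0.0776), also without overlap. Its partner Tap2 lay at -0.17 ± 0.11 and tapasin, Tapbp, at -0.21 ± 0.13, while the peptide editor gene Tapbpl lay at 0.056 ± 0.11 (log2 fold changes with SE), and for these 3 the groups overlapped.

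**Figure D4:**
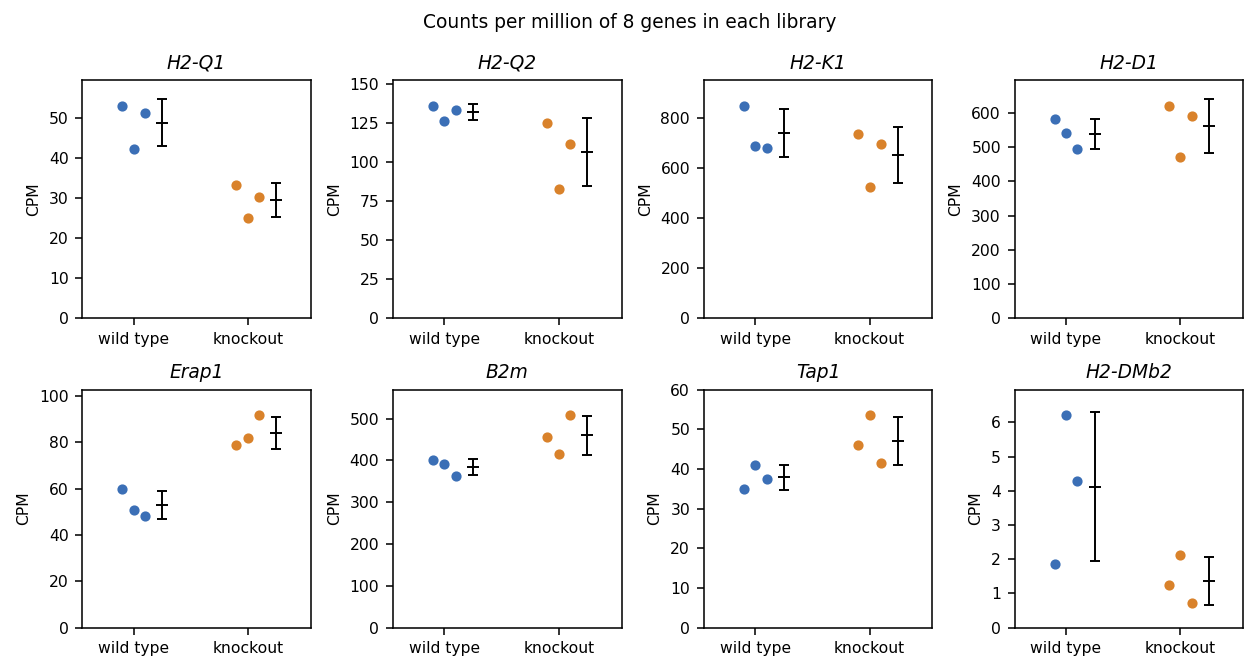
CPM of 8 genes in each library (blue, wild type; orange, knockout), with the mean and SD of 3 libraries beside the points, on axes that start at 0. The knockout points lie below all wild type points for H2-Q1 and H2-Q2 and above them for Erap1, B2m and Tap1, while those of H2-K1, H2-D1 and H2-DMb2 overlap.

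Of the 5 regulators 0 passed by edgeR or DESeq2 and 2 had an unadjusted p under 0.05. Ciita (ENSMUSG00000022504), the class II activator, had 7.10, 11.5 and 7.06 CPM in wild type and 6.48, 5.72 and 4.23 CPM in knockout. All 3 knockout libraries lay below the wild type ones, with wild type replicate 2 again the highest (log2 fold change -0.63 ± 0.23 SE, edgeR adjusted p = 0.0833). Without wild type replicate 2 the log2 fold change of Ciita was -0.33 (edgeR adjusted p = 0.352). Nlrc5 (ENSMUSG00000074151), the class I activator, had 24.2, 35.1 and 34.8 CPM in wild type and 41.6, 49.8 and 32.0 CPM in knockout (log2 fold change 0.40 ± 0.19 SE, edgeR adjusted p = 0.196) with overlapping groups. Of the 3 subunits of the RFX complex, Rfx5 lay at -0.32 ± 0.15, Rfxank at -0.30 ± 0.12 and Rfxap at 0.37 ± 0.18 (log2 fold changes with SE). Each had groups without overlap and an edgeR adjusted p between 0.115 and 0.173.

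Among 35 other genes of the pathway 33 were tested, of which 4 rose, 4 fell and 25 did not pass. The share called was 24.2%, against 15.4% of all genes tested (9.43% higher and 5.97% lower). Of the 3 further class II genes 2 fell, H2-Oa and H2-Ob, which encode the H2-DO inhibitor of H2-DM that B cells make. H2-Ob had 2.76, 7.15 and 3.77 CPM in wild type and 1.59, 2.12 and 1.36 CPM in knockout (log2 fold change -1.42 ± 0.36 SE, edgeR adjusted p = 0.0275). H2-Oa stood at 0.836 ± 0.217 and 0.262 ± 0.0887 CPM (SD, n = 3; edgeR adjusted p = 0.0269), with a knockout mean near the floor of 3 counts. The B cell markers, given above, were lower in knockout too, and their part in these falls was not tested. Of the endosomal enzymes 1 of 6 rose, the thiol reductase gene Ifi30, with 31.8, 29.4 and 26.4 CPM in wild type and 38.6, 39.7 and 42.1 CPM in knockout (log2 fold change 0.46 ± 0.099 SE, edgeR adjusted p = 0.0106). Cathepsin S, Ctss, which degrades the invariant chain, was at 243 ± 74.9 and 197 ± 29.0 CPM (SD, n = 3; edgeR adjusted p = 0.39).

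In the supply of class I peptides 2 of 3 chaperones rose, the disulfide isomerase gene Pdia3 from 169 ± 27.2 to 264 ± 21.7 CPM and the calnexin gene Canx from 245 ± 33.9 to 342 ± 19.6 CPM (SD, n = 3; edgeR adjusted p = 0.00852 and 0.0243). Of the 5 genes of the immunoproteasome and its activator 1 rose, the activator subunit gene Psme1, from 47.0 ± 2.31 to 61.2 ± 2.24 CPM (SD, n = 3; edgeR adjusted p = 0.0155). The catalytic subunit genes Psmb8 and Psmb9 had log2 fold changes of 0.015 ± 0.095 and 0.15 ± 0.11 (SE). Of 10 genes of interferon gamma signalling 1 fell, the transcription factor gene Irf2, from 38.6 ± 3.85 to 29.3 ± 2.06 CPM (SD, n = 3; edgeR adjusted p = 0.0260). Ifng itself had 22, 23 and 12 counts in wild type and 4, 4 and 7 in knockout (edgeR adjusted p = 0.0690). The interferon-induced transcription factor gene Irf1 stood at 158 ± 18 and 130.0 ± 11.5 CPM (SD, n = 3; edgeR adjusted p = 0.115). The 4 genes of NF-Y and CREB showed 0 calls by edgeR or DESeq2 and 0 at an unadjusted p under 0.05. Cd274, the inhibitory ligand PD-L1, was the 1 of 2 tested costimulation genes that fell, from 24.5 ± 3.68 to 17.4 ± 2.57 CPM (SD, n = 3; edgeR adjusted p = 0.0339). Without 1 library at a time the calls of Ifi30 and Pdia3 were kept in all 6 fits, those of Psme1 and Canx in 4 and 3, and those of H2-Oa, H2-Ob, Irf2 and Cd274 in 2 each (highest edgeR adjusted p = 0.122).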

How the data were processed

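RNA was sequenced from 6 libraries of the colon epithelial fraction, 3 wild type and 3 Lingo3-/-, made, per the labels, with a stranded total RNA kit after ribosomal RNA depletion. Trimming with Trimmomatic 0.39 and the use of STAR, HTSeq, DESeq2 and GRCm38 are listed per the submitters' processing notes. Their other versions, annotation release and strand setting: not given in the sources used here. Values deposited by the authors in one table are raw counts per Ensembl gene, with HTSeq summary lines (53.6 to 60.1% of reads, of which reads without a unique alignment made 32.2 to 36.9% of all) left out. In the authors' second table the log2 fold changes and standard errors are from DESeq2, as are the p-values and the Wald score (stat), per the file headers; its signal columns are the authors' normalized counts. That table was used only descriptively.

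Genes kept by filterByExpr (minimum count 10, minimum total 15) were scaled by TMM and tested with edgeR (robust quasi-likelihood, 2-sided) with genotype as the only term and Benjamini-Hochberg adjustment over all 16856 genes; the threshold was 0.05. The SE is the absolute log2 fold change over the root of F. Symbols and exon lengths came from GENCODE M21 (GRCm38), with exons of all transcripts merged. Shared words are 50-base stretches of the longest transcript that occur in another gene's transcripts; the read length is not given here. The fit ran in edgeR 4.0.16 under R 4.3.3 and was tested on simulated data; DESeq2 1.42.0 and limma 3.58.1 served as alternatives. Floors cover counting error only.

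The members, the pathway and marker lists (B cell, dendritic cell, macrophage and monocyte, T cell and intraepithelial lymphocyte, group 3 innate lymphoid cell, endothelial and fibroblast, epithelium) and the rule for naming genes (every member, every pathway gene called, 6 fixed pathway genes, and the 2 most abundant markers of a list) were chosen with earlier results of these data known. Of the genes this rule names, 1 pathway gene and 1 marker are not reported here. Other settings tried were 3 scalings (RLE, upper-quartile, library totals only), DESeq2, limma-voom, a mean CPM filter of 1, no filter, a replicate block, and leaving out each library.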

Additional observations from a re-analysis of the deposited data

How the results depend on the processing

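H2-Q1 kept its fall and Erap1 its rise, with the same side of the threshold, in all 14 alternatives, with log2 fold changes of -0.82 to -0.44 and 0.60 to 0.95. The number of the 34 genes that rose was 9 with library totals only, a scaling that moved the median over all genes by 0.28 (log2), and 3 with no filter; the number that fell was 3 with DESeq2, 4 with no filter and 2 with the replicate block. Leaving out 1 library gave 1 higher in each fit and 1 to 2 lower, the 2 (with H2-DMb2) without wild type replicate 1. Pathway genes numbered 13 higher and 2 lower with library totals only, and 2 to 5 higher and 0 to 2 lower without 1 library, the 0 without knockout replicate 3. Marker genes higher, 3 with all libraries, were 10 with library totals only, 5 with DESeq2, 6 with no filter and 2 to 6 without 1 library, and marker genes lower, 17 with all libraries, were 25 with DESeq2, 24 with no filter and 12 to 21 without 1 library. B cell markers lower were 6 with the replicate block. All genes called, 1589 higher and 1007 lower, became 5415 and 420 with library totals only, 1675 lower with no filter, and 711 to 1677 higher and 413 to 1070 lower without 1 library. Some fitted values of the 34 genes changed sign. With library totals only these were H2-DMa (0.27), H2-K1 (0.11), H2-Q4 (0.16), H2-Q6 (0.060), H2-T3 (0.069), H2-T24 (0.26), H2-M3 (0.28), Tap2 (0.11) and Tapbp (0.082). With limma-voom H2-DMa (0.036) and H2-M3 (0.0066) did so, with no filter H2-DMa (0.0054) and H2-M3 (0.0026), with the replicate block H2-DMa (0.031) and H2-M3 (0.0020), and with upper-quartile factors H2-D1 (-0.012) and Tapbpl (-0.014). Without 1 library the ranges were -0.16 to 0.37 for H2-DMa, -0.49 to 0.051 for Cd74, -0.016 to 0.17 for H2-D1, -0.20 to 0.0039 for H2-Q4, -0.36 to 0.0032 for H2-Q6, -0.18 to 0.13 for H2-T24 and -0.12 to 0.16 for H2-M3. The changes with library totals only went with the shift of 0.28 in the median over all genes, and the cause of the others was not tested. Wild type and knockout libraries of the same number correlated at -0.010, -0.12 and -0.10 in their deviations from the group means. No library correlated best with its own number. Such small values from 3 libraries a group cannot decide whether the numbers mark a pairing. With 3 libraries a group and as few as 9 counts for H2-DMb2 and 11 for Mr1 in a library, small differences in these genes were not detectable at this depth.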

Other observations

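A list of receptor genes, many of which bind class I or class II molecules, was looked at after the values above had been seen. Of its 18 genes tested, 9 fell and 0 rose by edgeR, where 5.97% of all genes tested fell. Klrb1c, which is among those that fell, is not known to bind these molecules. Of the 9 that fell, 4 are T cell receptor constant genes. Cd4 and Cd8b1, which fell, and Cd8a, which did not pass, also belong to the T cell and intraepithelial lymphocyte markers. Of those markers 10 of 12 fell. The part of fewer such cells in these values was not tested. The coreceptor gene Cd8b1 went from 7.37 ± 1.72 to 1.39 ± 0.345 CPM and Cd4 from 1.99 ± 0.188 to 0.446 ± 0.199 CPM (SD, n = 3; edgeR adjusted p = 0.000785 and 0.00319). Cd8a, whose homodimers bind the H2-T3 product, stood at 39.1 ± 4.28 and 19.9 ± 7.32 CPM (SD, n = 3; edgeR adjusted p = 0.0695). Klrd1, which encodes CD94, the partner in the receptor for Qa-1, fell from 18.1 ± 3.34 to 10.3 ± 1.88 CPM (SD, n = 3; edgeR adjusted p = 0.0101), and its ligand gene H2-T23 did not pass.

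The part of chromosome 17 from H2-K1 to H2-M3 (33996017 to 37274484) holds 137 tested genes, of which 3 rose and 12 fell. The share called in this region was 10.9%, against 15.4% of all genes tested (9.43% higher and 5.97% lower). Besides H2-Q1 the class I related genes that fell there were H2-Bl (4.60 and 1.63 CPM in wild type and knockout; edgeR adjusted p = 0.0109), annotated as a polymorphic pseudogene, and the pseudogene Gm10499 (8.02 and 2.72 CPM; edgeR adjusted p = 0.0163). Of the 6 butyrophilin-like genes tested in this region, singled out after their values had been seen, 3 fell and 3 did not pass. The 3 that did not pass were Btnl5-ps (202 and 164 CPM), Btnl1 (52.8 and 47.2 CPM) and Btnl2 (10.4 and 6.83 CPM), with edgeR adjusted p = 0.0706, 0.561 and 0.0600. Btnl6 went from 152 to 105 CPM and Btnl4 from 76.4 to 57.5 CPM (edgeR adjusted p = 0.0104 and 0.0286), and the pseudogene Btnl7-ps from 20.2 to 8.01 CPM (edgeR adjusted p = 0.000785).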
